A study of Mus musculus with 35 samples.

Results

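The mRNA levels of 9 transcription factors of effector CD8+ T cells (Tbx21, Prdm1, Id2, Zeb2, Irf4, Irf8, Batf, Batf3 and Runx3) were followed in cells exposed to acidity with or without IL-2. The genes were taken by name from a list and are 9 of the 48709 genes in the count tables, and each name matched 1 gene identifier. The libraries came from OT-I cytotoxic T lymphocytes (CTLs), which are CD8+ T cells whose transgenic receptor sees a single peptide of ovalbumin. In the study's methods, CD8+ T cells were purified from mouse spleen by negative selection, primed with antibodies to CD3 and CD28, and expanded in IL-2 before the test culture, so all groups share that history. How the cells were held just before 0 h is not given for these libraries. There were 7 groups of 5 biological replicates, 35 libraries in all. One group was taken at 0 h. The others spent 24 h in medium of pH 7.4, 7 or 6.6, and at every pH some cultures received murine IL-2 (200 IU/mL) and some none. Dead cells were removed on Ficoll before RNA extraction, so each library describes the cells left after that step. The age of the mice, and whether a replicate is 1 animal, are not given in the sources used here.

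As background, T-bet (the product of Tbx21), Blimp-1 (Prdm1), the E-protein inhibitor Id2 and the zinc-finger repressor Zeb2 drive terminal effector differentiation and the cytotoxic program. IRF4 scales with the strength of antigen receptor signaling and works together with BATF, IRF8 is an interferon regulatory factor that can also pair with BATF family members, and RUNX3 holds the CD8+ lineage and opens cytotoxic genes early after activation. IL-2 acts through JAK kinases and STAT5, which binds sites known as GAS elements, and strong IL-2 signals are known to favor effector over memory differentiation.

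All 9 are protein-coding genes, and counts cover their exons. In GENCODE M21 (GRCm38) they lie, with their strand, as follows: Tbx21 (ENSMUSG00000001444) at chr11:97098071-97115331 (minus), Prdm1 (ENSMUSG00000038151) at chr10:44437177-44528501 (minus), Id2 (ENSMUSG00000020644) at chr12:25093799-25097140 (minus), Zeb2 (ENSMUSG00000026872) at chr2:44983632-45117395 (minus), Irf4 (ENSMUSG00000021356) at chr13:30749226-30766976 (plus), Irf8 (ENSMUSG00000041515) at chr8:120736358-120756694 (plus), Batf (ENSMUSG00000034266) at chr12:85686669-85709087 (plus), Batf3 (ENSMUSG00000026630) at chr1:191097847-191108945 (plus) and Runx3 (ENSMUSG00000070691) at chr4:135120652-135177990 (plus).

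Libraries held 16721319 to 34033340 reads on genes (median 24730020), and 13819 genes passed the filter on low counts and were tested. The row for alignments to several places, which was not counted, made up 32.8% to 48.3% of the table totals. The highest share was in replicate 5 at 0 h. Whether a read entered that row once or once per place is not given, so this may not be a share of reads. For the members, 97.7% or more of the 50-base windows in their transcripts occur in no other gene, and only Zeb2 shares exon bases with other genes, mainly 3.27% with the antisense gene Zeb2os. The cells carried the T-cell label in every group: the summed level of 8 CD8+ T-cell markers (Cd8a, Cd8b1, Cd3d, Cd3e, Cd3g, Cd247, Thy1 and Lck) was 3608 to 6570 CPM (reads scaled to the normalised library size). Of 7 myeloid markers the sum was at most 1.10 CPM, and of 3 erythroid markers at most 0.235 CPM. Of 6 B-cell markers it was at most 6.73 CPM, with 4 of the 6 under 0.1 CPM in every group. Of 4 markers of CD4+ T cells it was 17.4 to 63.8 CPM, nearly all of it Zbtb7b (group means of 25.6 to 49.2 CPM), while Cd40lg was under 0.1 CPM and Cd4 had group means of 0.123 to 1.79 CPM. With IL-2, Cd4 and Foxp3 differed at pH 6.6 from their levels at pH 7.4 (1.34 and -1.04 on the log2 scale, edgeR, adjusted p = 0.027 and 0.0025), and their part in the results was not tested. The comparisons below share libraries (the pH 7.4 libraries serve both pH 6.6 and pH 7, and each library serves a pH and an IL-2 comparison), so their values are set side by side and not counted as separate evidence.

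The start regions of the members are shown for 3 genes. With IL-2 at pH 7.4, Irf8 and Batf3 were higher and Runx3 was lower. RefSeq windows of 300 bases (GRCm38.p6, 250 bases before to 50 bases after a transcript start) were found for all 9 genes, 14 windows in all. They were searched on both strands for 7 motifs, namely TTCNNNGAA (GAS, bound by STAT factors), TGACGTCA (CRE), CACGTG (E-box), TGANTCA (AP-1), a core of the interferon-stimulated response element (GAAA repeated after a gap of 2 bases), TGTGGT (RUNX) and GGTGTGA (T-box). The windows are Irf8 at chr8:120736108-120736407, Batf3 at chr1:191098164-191098463 and the upstream start of Runx3 at chr4:135120395-135120694, all on the plus strand. Capitals mark the matches.
Irf8: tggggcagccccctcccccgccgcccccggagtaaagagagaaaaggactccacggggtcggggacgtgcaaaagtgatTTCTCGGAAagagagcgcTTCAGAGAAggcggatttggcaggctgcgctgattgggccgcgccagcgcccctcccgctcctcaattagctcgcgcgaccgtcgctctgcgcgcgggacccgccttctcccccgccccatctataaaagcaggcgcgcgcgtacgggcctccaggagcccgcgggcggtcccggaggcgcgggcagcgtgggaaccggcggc
Batf3: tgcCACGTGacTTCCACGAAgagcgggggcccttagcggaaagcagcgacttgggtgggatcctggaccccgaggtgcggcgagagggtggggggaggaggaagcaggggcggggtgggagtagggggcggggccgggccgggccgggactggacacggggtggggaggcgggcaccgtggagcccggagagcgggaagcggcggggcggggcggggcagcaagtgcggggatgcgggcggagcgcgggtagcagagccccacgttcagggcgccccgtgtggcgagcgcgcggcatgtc
Runx3: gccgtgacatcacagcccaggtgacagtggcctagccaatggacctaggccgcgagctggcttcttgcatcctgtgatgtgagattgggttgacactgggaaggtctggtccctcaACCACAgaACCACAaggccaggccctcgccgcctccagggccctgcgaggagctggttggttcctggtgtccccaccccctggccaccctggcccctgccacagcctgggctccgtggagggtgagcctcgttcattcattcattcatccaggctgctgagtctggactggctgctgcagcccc
The Irf8 window holds 2 GAS matches, TTCTCGGAA and TTCAGAGAA, whose first bases lie 171 and 153 bases before the start. The Batf3 window holds 1 GAS match, TTCCACGAA, beside an E-box, and the Runx3 window holds 2 RUNX matches, both on the opposite strand and so printed as ACCACA, and no GAS match. GAS matches were found for 3 of the 9 genes (Irf8, Batf3 and Zeb2) in 4 of the 14 windows, and 8.3% of all 32851 mouse windows have one. The 2 Zeb2 windows with a GAS match overlap and share it. Id2, Tbx21 and Prdm1 were also higher with IL-2 at pH 7.4 and had no GAS match. Zeb2 did not differ with IL-2 at pH 7.4 past the threshold used below. A link between a match and the response to IL-2 was not tested. RUNX matches stood in windows of Batf and Runx3 (16.8% of all windows have one), AP-1 matches in those of Prdm1 and Zeb2 (7.81%), and the E-box only in that of Batf3 (7.15%). No member window had a CRE match (1.79% of all windows), an interferon response core (3.44%) or a T-box match (3.98%). These are letter matches, and no binding was measured.

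Levels between the factors were compared per kb of merged exons. At pH 7.4 with IL-2, Id2 was the most abundant at 403 CPM per kb, followed by Irf8 at 36.2, Runx3 at 26.7, Irf4 at 24.4, Batf at 17.8, Tbx21 at 8.33 and Prdm1 at 2.91. Batf3 at 0.286 and Zeb2 at 0.0274 CPM per kb were close to the limit of detection. After 24 h at pH 7.4 without IL-2 the order changed: Id2 stood at 186 CPM per kb, Runx3 at 39.1, Irf4 at 21.5, Batf at 14.9, Tbx21 at 4.14, Irf8 at 3.64 and Prdm1 at 1.79.

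**Figure D1:**
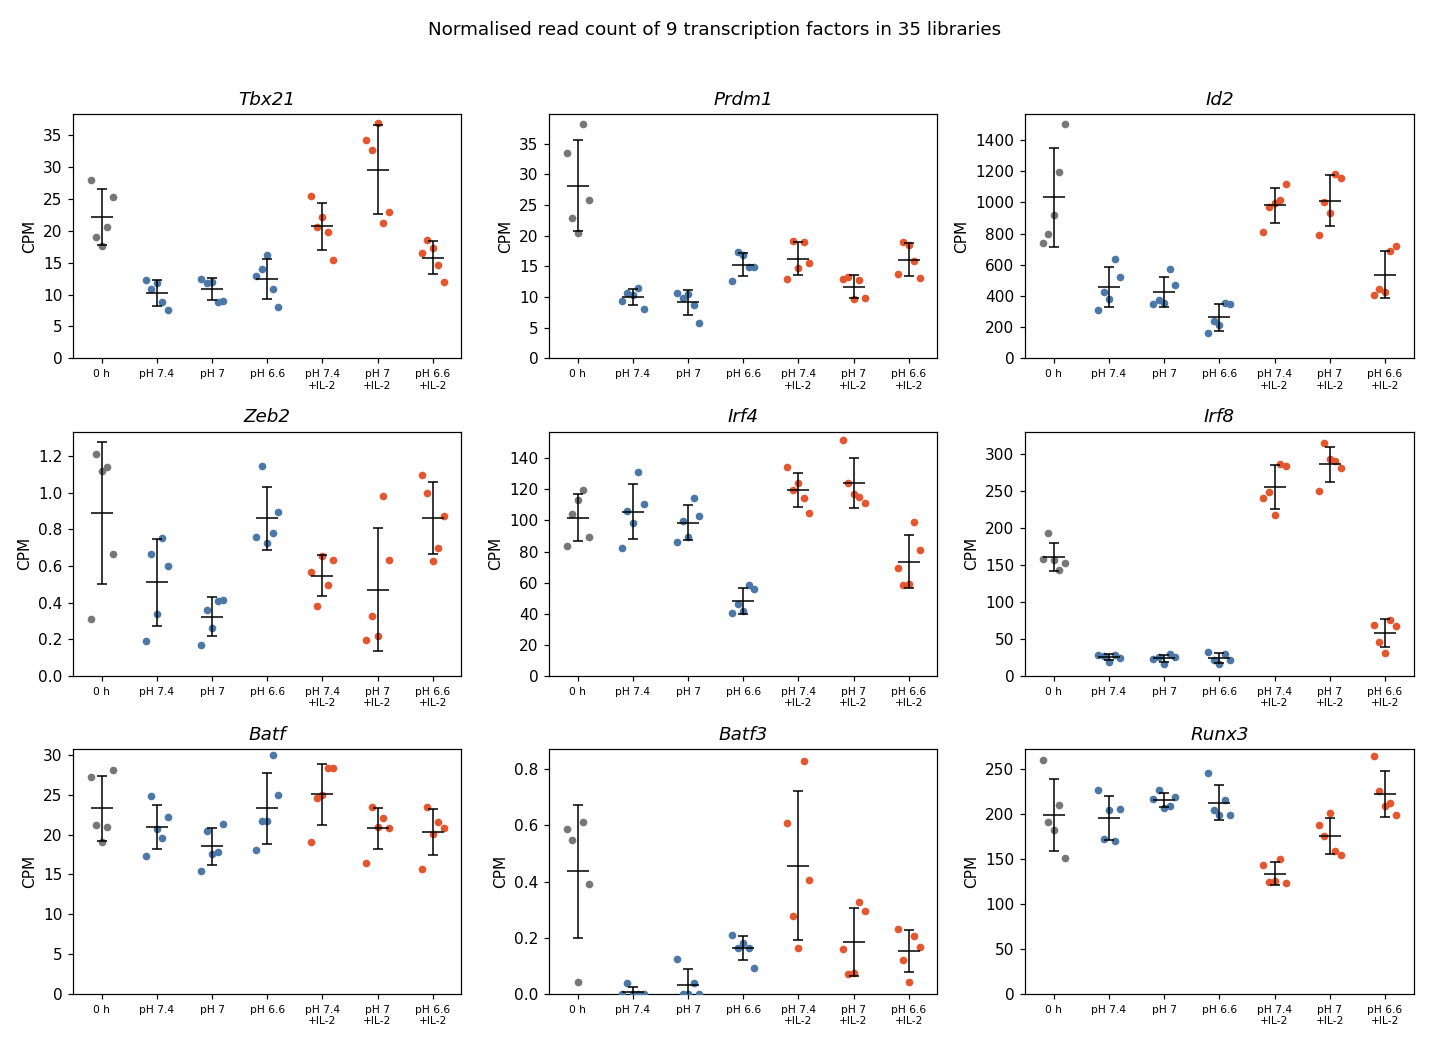
Normalised read counts (CPM, y axes starting at 0) of the 9 factors in each of the 35 libraries, by group on the x axis, with grey for 0 h, blue for cells without IL-2 and red for cells with IL-2. Points are libraries in the order of replicates 1 to 5, and the bars are the mean ± SD of 5 libraries. Irf8 stands above 193 CPM only in the pH 7.4 and pH 7 groups with IL-2, and Runx3 is lowest at pH 7.4 with IL-2.

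IL-2 at pH 7.4 changed 7 of the 9 factors (edgeR, adjusted p under 0.05), where 80.4% of all tested genes changed, so the count is no larger than the background. In this comparison 6 factors were higher with IL-2, against 39.3% of all genes, and 1 was lower. The higher ones were Irf8, Id2, Tbx21, Prdm1, Batf and Batf3, and the lower one was Runx3. Batf3 passed the filter on low counts only through 0 h and pH 7.4 with IL-2, where it was high, so its call here was partly fixed by the filter, and without it 6 of 8 factors changed, 5 of them higher. Zeb2 (log2 fold change 0.15 ± 0.35, SE) and Irf4 (0.20 ± 0.12) did not pass. Here and in every comparison, RNA was taken from bulk cells. A change in the share of cells that express a factor and a change in its RNA per cell cannot be told apart. Levels are also relative to the normalised library size. Total RNA per cell was not measured, so a rise or fall is one relative to the other genes.

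Irf8 had the widest range of the abundant factors. At 24 h and pH 7.4 its level in replicates 1 to 5 was 28.4, 27.2, 18.7, 28.7 and 25.2 CPM without IL-2, and 240, 248, 218, 287 and 284 CPM with IL-2. The groups were far apart, with a log2 fold change of 3.32 ± 0.15 (adjusted p = 2.6e-19, higher in 5 of 5 pairs). At pH 6.6 it was 31.9, 22.4, 16.8, 29.8 and 21.6 CPM without IL-2 and 69.7, 45.7, 31.2, 75.5 and 67.1 CPM with IL-2. The ranges touched there, because replicate 3 with IL-2 lay just below replicate 1 without it, although each replicate was higher with IL-2 than its own partner (log2 fold change 1.22 ± 0.15, adjusted p = 1.2e-07). With IL-2, pH 6.6 lowered Irf8 by a log2 fold change of -2.17 ± 0.15 (adjusted p = 7.1e-15), 4.51-fold, with no overlap between the groups. Without IL-2 the same comparison gave -0.07 ± 0.15 (adjusted p = 0.68). The interaction, the difference between these effects of pH, was -2.10 ± 0.20 (adjusted p = 1.1e-10, the same sign in 5 of 5 pairs). Even the lowest of the 3 means with IL-2 (57.8 CPM at pH 6.6) was above each mean without it (24.2 to 25.7 CPM), and the 3 groups without IL-2 overlapped.

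Some kinds of dendritic cell need IRF8, and markers of dendritic cells were at low levels. Of a list of 7, the class II genes H2-Aa and Cd74 had means of 6.21 and 6.47 CPM at pH 7.4 with IL-2, 11.2 and 9.02 CPM at pH 7 with IL-2, and 0.614 to 1.51 CPM in the other groups, among them 0 h (1.06 and 1.22 CPM), where Irf8 was high. With IL-2, their log2 fold changes at pH 6.6 against pH 7.4 were -2.71 and -2.88, beside -2.17 for Irf8. Their interactions were -2.02 and -2.28, beside -2.10 for Irf8. IL-2 at pH 6.6 gave -0.05 and -0.09 for them, beside 1.22 for Irf8. Flt3 was 2.48 and 3.61 CPM at pH 7.4 and pH 7 without IL-2 and under 0.3 CPM in every other group, and Zbtb46 was highest at pH 6.6 (16.9 CPM with IL-2 and 24.7 CPM without), so the list's members did not move together. The summed level of that list was 7.81 to 23.8 CPM at pH 7.4 with IL-2, 14.2 to 34.8 CPM at pH 7 with IL-2 and 22.5 to 32.6 CPM at pH 6.6 without IL-2. It was 15.2 to 24.7 CPM at pH 6.6 with IL-2, 5.21 to 11.6 CPM at pH 7.4 and 6.48 to 10.4 CPM at pH 7 without IL-2, and 1.03 to 4.85 CPM at 0 h. The defining markers Xcr1, Clec9a and Siglech were at or near 0 in all groups, and 3 or 4 of the 7 markers had a mean under 0.1 CPM in each group. The part of these genes' source in the Irf8 result was not tested.

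Id2, which keeps E proteins from binding DNA and is needed by effector cells, was high in every library but followed IL-2 and pH side by side. With IL-2 its level in replicates 1 to 5 was 809, 968, 998, 1017 and 1115 CPM at pH 7.4 and 403, 446, 428, 686 and 722 CPM at pH 6.6. Without IL-2 it was 308, 426, 380, 640 and 518 CPM at pH 7.4 and 161, 241, 210, 353 and 347 CPM at pH 6.6. Each replicate was lower in acid than its partner, and only the groups without IL-2 overlapped. The fall at pH 6.6 was -0.92 ± 0.10 with IL-2 (adjusted p = 6.4e-10) and -0.81 ± 0.10 without (adjusted p = 2e-08). IL-2 raised Id2 by 1.16 ± 0.10 at pH 7.4 and by 1.05 ± 0.10 at pH 6.6 on the log2 scale. The interaction was -0.11 ± 0.14 (adjusted p = 0.50). At pH 6.6 with IL-2 the mean (537 ± 154 CPM, SD, n = 5) was near that at pH 7.4 without IL-2 (454 ± 129 CPM). Their difference of 0.24 ± 0.10 passed the threshold (adjusted p = 0.035) but not without replicate 1 (adjusted p = 0.0996), without replicate 5 (0.105) or without the replicate block (0.342).

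Irf4 fell at pH 6.6 with and without IL-2. At pH 7.4 it stood at 134, 120, 124, 114 and 105 CPM with IL-2 and at 82.1, 106, 98.3, 131 and 111 CPM without, which overlap. At pH 6.6 it stood at 69.3, 58.6, 59.3, 99 and 81.2 CPM with IL-2 and at 40.3, 46.1, 41.6, 58.5 and 55.8 CPM without, where the groups were just separate. The pH effect was -0.72 ± 0.12 with IL-2 (adjusted p = 2.5e-06) and -1.12 ± 0.12 without (adjusted p = 1.4e-09), in 5 of 5 pairs each time. IL-2 raised it at pH 6.6 (0.59 ± 0.12, adjusted p = 0.00042). The interaction of 0.40 ± 0.17 passed narrowly (adjusted p = 0.039) and was lost without replicate 3 (adjusted p = 0.0594), replicate 4 (0.219) or replicate 5 (0.12), without the replicate block (0.051) and with a looser filter (0.0715). At 0 h the mean was 102 ± 15.3 CPM, and neither 24 h group at pH 7.4 differed from it beyond the threshold, although without replicate 4 the group with IL-2 did (adjusted p = 0.0401) and IL-2 at pH 7.4 passed as well (0.0403).

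Tbx21, the master factor of the type 1 effector program, was 25.5, 20.7, 22.2, 19.9 and 15.4 CPM at pH 7.4 with IL-2 and 12.3, 10.9, 11.9, 8.8 and 7.62 CPM without. These groups did not overlap, and IL-2 raised Tbx21 by 1.01 ± 0.13 (adjusted p = 1.2e-08). With IL-2 it was 34.3, 32.7, 36.9, 21.3 and 23 CPM at pH 7 and 16.5, 18.6, 17.3, 14.6 and 12 CPM at pH 6.6. It was therefore highest at the middle pH, not at pH 7.4. Against pH 7.4 it was higher at pH 7 (0.50 ± 0.12, adjusted p = 0.0040, 5 of 5 pairs) and lower at pH 6.6 (-0.39 ± 0.13, adjusted p = 0.0063, 5 of 5 pairs). Leaving out replicate 1 ended the second call (-0.26, adjusted p = 0.116). Without IL-2 the means were 10.3, 10.8 and 12.4 CPM at pH 7.4, pH 7 and pH 6.6. The rise at pH 6.6 of 0.26 ± 0.13 missed the threshold (adjusted p = 0.071), but passed it with RLE normalization (0.0356), with DESeq2 (0.0332), with only the groups compared (0.0437) and without replicate 5 (0.0294). The pH 6.6 effects with and without IL-2 differed (interaction -0.65 ± 0.18, adjusted p = 0.0021). The effects of pH 7 did not differ past the threshold (0.43 ± 0.18, adjusted p = 0.18), except in a fit of only the groups compared (adjusted p = 0.0162).

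Prdm1 encodes Blimp-1, which represses memory genes. It was highest at 0 h (33.4, 22.8, 20.4, 38.3 and 25.8 CPM), above every library of every 24 h group. At 24 h and pH 7.4 it had fallen to 12.9, 19.1, 14.7, 19 and 15.6 CPM with IL-2 and to 9.4, 10.6, 10.3, 11.5 and 8 CPM without. The IL-2 effect was 0.71 ± 0.15 (adjusted p = 5.6e-05) with no overlap. At pH 6.6 the values were 13.8, 19, 18.5, 15.9 and 13.1 CPM with IL-2 and 12.6, 17.3, 16.8, 14.8 and 14.9 CPM without, which overlap. The pH 6.6 effect was -0.02 ± 0.14 with IL-2 (adjusted p = 0.92), and acidity raised Prdm1 without IL-2 (0.62 ± 0.15, adjusted p = 0.00040, 5 of 5 pairs). The interaction was -0.64 ± 0.21 (adjusted p = 0.0069), and was lost without replicate 2 (adjusted p = 0.0547). At pH 7 with IL-2 Prdm1 fell by 0.48 on the log2 scale (adjusted p = 0.020), a call that was lost without the replicate block (0.0501) and without replicate 2, 3, 4 or 5 (adjusted p from 0.0605 to 0.0708).

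Runx3 went the other way. With IL-2 it was 144, 124, 126, 151 and 123 CPM at pH 7.4, 188, 175, 201, 158 and 155 CPM at pH 7 and 265, 225, 209, 212 and 199 CPM at pH 6.6. The pH 7.4 libraries lay below all others with IL-2, and the pH 7 and pH 6.6 ranges met. The log2 fold change against pH 7.4 was 0.39 ± 0.09 at pH 7 (adjusted p = 0.0017) and 0.73 ± 0.09 at pH 6.6 (adjusted p = 5.1e-09), each in 5 of 5 pairs. Without IL-2 the means were 196 ± 24.5, 216 ± 7.84 and 213 ± 19.5 CPM (SD, n = 5) at pH 7.4, pH 7 and pH 6.6, and no difference from pH 7.4 passed. IL-2 lowered Runx3 at pH 7.4 (-0.55 ± 0.09, adjusted p = 9.1e-07) and at pH 7 (-0.30 ± 0.09, adjusted p = 0.0023), and the value at pH 6.6 was 0.06 ± 0.09 (adjusted p = 0.66). The interaction at pH 6.6 was 0.61 ± 0.12 (adjusted p = 6e-05). The 0 h libraries, at 199 ± 40.2 CPM, overlapped every group but pH 7.4 with IL-2, whose highest library (150.6 CPM) lay just below their lowest (151.3 CPM). The counts do not distinguish the upstream from the downstream start of Runx3.

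Batf, the AP-1 partner of IRF4, moved least. Its group means lay between 18.5 CPM (pH 7 without IL-2) and 25 CPM (pH 7.4 with IL-2) and neighbours in that order overlapped throughout. The libraries held with IL-2 19 to 28.4 CPM at pH 7.4 and 15.7 to 23.5 CPM at pH 6.6, with a log2 fold change of -0.30 ± 0.11 (adjusted p = 0.016, lost without replicate 5 at 0.0755). IL-2 at pH 7.4 gave 0.25 ± 0.11 (adjusted p = 0.036), a call that each omission of a replicate ended (adjusted p from 0.0545 to 0.147), as did a stricter filter (0.0875) and a fit without the replicate block (0.0801). The interaction at pH 6.6 was -0.45 ± 0.16 (adjusted p = 0.013), lost without replicate 4 (0.121) or replicate 5 (0.0533).

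Batf3, a relative of Batf, was present as a few reads per library. The libraries of replicates 1 to 5 held 15, 15, 1, 15 and 10 reads at 0 h, 15, 8, 4, 20 and 9 at pH 7.4 with IL-2, and 0, 1, 0, 0 and 0 at pH 7.4 without IL-2. At pH 6.6 they held 4, 3, 1, 5 and 4 reads with IL-2 and 5, 5, 4, 4 and 2 without. Batf3 reached 10 reads only in libraries at 0 h and at pH 7.4 with IL-2, and it passed the filter through these groups, so that some of its comparisons had to differ. Pooled over 5 libraries and scaled to depth, the ratio of pH 6.6 to pH 7.4 with IL-2 was 0.329 (17 against 56 reads, exact 95% counting interval 0.179 to 0.575). The ratio of pH 6.6 to pH 7.4 without IL-2 was 20.9 (20 against 1 read, 3.34 to 865), and that of IL-2 to none at pH 7.4 was 57.5 (56 against 1, 9.90 to 2309). These intervals cover counting error only. Batf3 passed the threshold in the model fit for both of these pH comparisons and their interaction, but its fitted values depend on the prior count, and with the filter passed through its high groups these calls are no separate support.

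Zeb2, a zinc-finger repressor that drives terminal effector differentiation, was detected at 4 to 35 reads per library. Its lowest and highest values were 0.629 and 1.10 CPM at pH 6.6 with IL-2 and 0.727 and 1.14 CPM at pH 6.6 without. At pH 7.4 they were 0.382 and 0.657 CPM with IL-2 and 0.194 and 0.751 CPM without. The pH 6.6 value was 0.63 ± 0.33 with IL-2 (adjusted p = 0.080, passing in a fit of only the groups compared at 0.0252) and 0.81 ± 0.32 without (adjusted p = 0.029, lost without the replicate block at 0.0622 and without replicate 1, 2, 3 or 5, at 0.0516 to 0.112). The interaction was -0.18 ± 0.46 (adjusted p = 0.75). No IL-2 effect on Zeb2 passed at any pH.

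Counted together, pH 6.6 with IL-2 changed 7 of the 9 factors against pH 7.4 with IL-2, beside 76.3% of all genes. Of these, 6 were lower (Irf8, Batf3, Id2, Irf4, Tbx21 and Batf), where 40.9% of all genes were lower, and Runx3 was higher. Without IL-2, 5 of 9 changed, beside 67.0% of all genes: Id2 and Irf4 were lower, and Prdm1, Zeb2 and Batf3 higher. Leaving Batf3 aside, the counts were 6 of 8 with IL-2 (5 lower) and 4 of 8 without. The interaction passed for 7 of the 9 factors, beside 67.0% of all genes, and 5 of these were below 0 (Irf8, Batf3, Tbx21, Prdm1 and Batf), beside 32.8% of all genes. Without Batf3 it passed for 6 of 8, of which 4 were below 0.

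**Figure D2:**
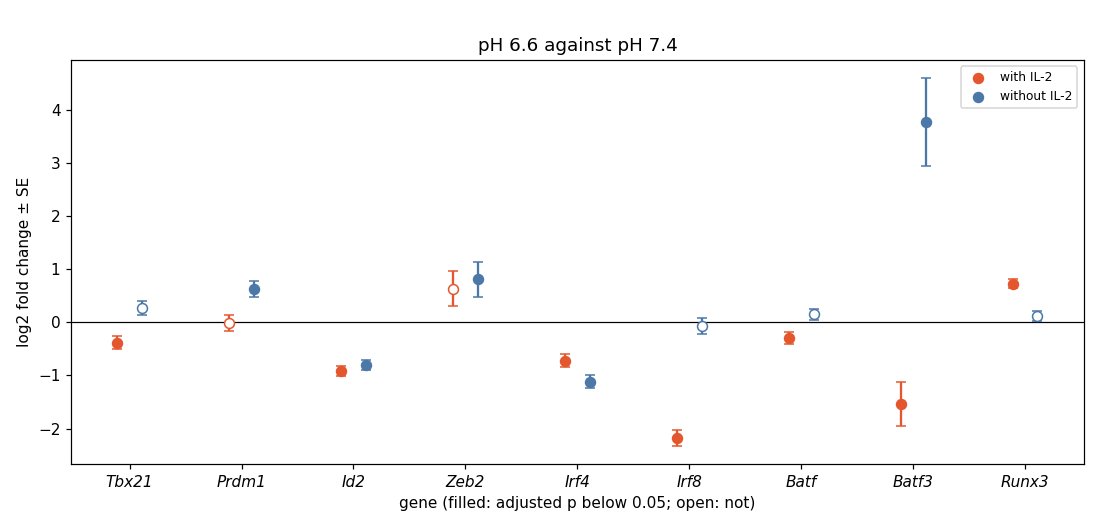
Log2 fold change of pH 6.6 against pH 7.4 (y axis, ± SE from edgeR, 5 libraries a group) for each factor on the x axis, in red with IL-2 and in blue without. Filled points have an adjusted p below 0.05 and open points do not. Irf8 lies at -2.17 with IL-2 and at -0.07 without, whereas Id2 and Irf4 lie below 0 in both colors.

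The effect of IL-2 was also tested at each lower pH. At pH 7 it changed 7 of 9, beside 77.2% of all genes: Irf8 (3.59 ± 0.15), Batf3 (24 reads against 4), Tbx21 (1.44 ± 0.13), Id2 (1.27 ± 0.10), Prdm1 (0.36 ± 0.15) and Irf4 (0.34 ± 0.12) were higher and Runx3 lower. The call for Prdm1 was lost without replicate 1, 2, 4 or 5 (adjusted p from 0.0749 to 0.137), and that for Irf4 without replicate 1 (0.265) or replicate 2 (0.0713). At pH 6.6 it changed 4 of 9, beside 23.7% of all genes, and all 4 were higher, beside 13.2% of all genes: Irf8, Id2, Irf4 and Tbx21. The value of Tbx21 there was 0.36 ± 0.13 (adjusted p = 0.037), and it was lost without the replicate block (0.182) and without replicate 1, 2, 4 or 5 (0.0642 to 0.125). Prdm1 (0.07 ± 0.14), Batf (-0.19 ± 0.11), Zeb2 (-0.02 ± 0.31), Batf3 (17 reads against 20) and Runx3 (0.06 ± 0.09) did not pass.

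**Figure D3:**
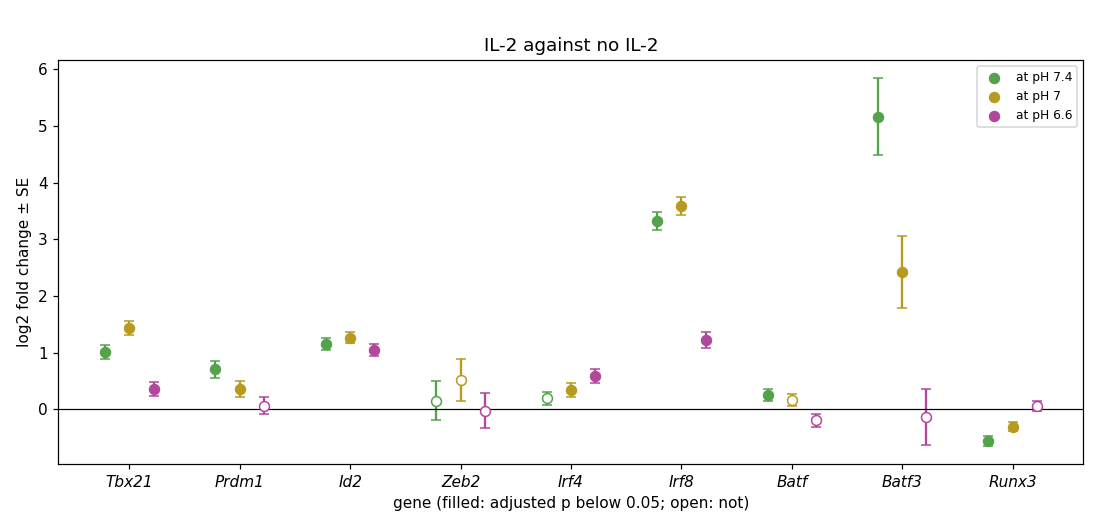
Log2 fold change of IL-2 against no IL-2 (y axis, ± SE from edgeR, 5 libraries a group) for each factor on the x axis, at pH 7.4 in green, at pH 7 in yellow and at pH 6.6 in purple. Filled points have an adjusted p below 0.05 and open points do not. Id2 lies near 1 at each pH, while Irf8 falls from 3.32 at pH 7.4 to 1.22 at pH 6.6.

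At the intermediate pH 7, 4 of the 9 factors differed from pH 7.4 with IL-2 (Tbx21 and Runx3 higher, Prdm1 and Batf3 lower), beside 19% of all genes. Batf3 passed the filter on low counts only through 0 h and the higher group here, pH 7.4 with IL-2. Its call was thus partly fixed by the filter and adds no support to the count. In addition to the losses for Prdm1, the call for Batf3 (-1.27 ± 0.39) was lost without replicate 2 (adjusted p = 0.0651), without the replicate block (0.0907) and with a looser filter (0.0523). Irf8 (0.18 ± 0.14), Id2 (0.03 ± 0.10) and Irf4 (0.05 ± 0.12) did not pass, and nor did Batf (-0.27 ± 0.11, adjusted p = 0.087), which passed in a fit of only the groups compared (0.017). Without IL-2, 0 of the 9 factors differed between pH 7 and pH 7.4 in edgeR, also at an unadjusted p of 0.05, and 0 of the 8 with a DESeq2 value did, beside 1.68% of all genes. The interaction of pH 7 and IL-2 passed for 0 of 9 factors, beside 4.79% of all genes, with unadjusted p under 0.05 for Tbx21 and Batf3. DESeq2 called 0 of the 7 factors for which it gave a value, which leaves out Batf3 and Zeb2. Between pH 6.6 and pH 7, 7 of 9 differed with IL-2 (72.4% of all genes) and 6 of 9 without (66.6%). With IL-2, Irf8, Id2, Tbx21 and Irf4 were lower in the more acid medium and Prdm1, Runx3 and Zeb2 higher, and the call for Prdm1 was lost without replicate 3 (adjusted p = 0.0535) and that for Zeb2 without replicate 1, 2 or 3 (0.0577 to 0.0663). Without IL-2, Id2 and Irf4 were lower and Prdm1, Zeb2, Batf3 and Batf higher, and the call for Batf was lost without replicate 4 (adjusted p = 0.117).

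Further comparisons set the cells against their starting point and against each other. After 24 h at pH 7.4 with IL-2, 3 of 9 factors differed from 0 h, beside 59.9% of all genes: Irf8 was higher (0.65 ± 0.14), and Prdm1 (-0.80 ± 0.14) and Runx3 (-0.56 ± 0.09) were lower. Zeb2 (-0.66 ± 0.32, adjusted p = 0.074) passed without replicate 1 (-0.95, adjusted p = 0.0123). After 24 h at pH 7.4 without IL-2, 6 of 9 differed, beside 75.2% of all genes, and all 6 were lower, beside 38.3% of all genes. These were Batf3, Irf8 (-2.67 ± 0.15), Prdm1 (-1.50 ± 0.15), Id2 (-1.18 ± 0.10), Tbx21 (-1.14 ± 0.13) and Zeb2 (-0.82 ± 0.32), the last lost without replicate 2 (adjusted p = 0.0812) or replicate 3 (0.141). Batf3 passed the filter on low counts only through 0 h and pH 7.4 with IL-2, where it was high. Its fall from 0 h was thus partly fixed by the filter and adds no support to the count. Cells at pH 6.6 with IL-2 differed from cells at pH 7.4 without IL-2 in 7 of 9 factors, beside 64.4% of all genes. Irf8 (1.15 ± 0.15), Prdm1 (0.69 ± 0.15), Tbx21 (0.63 ± 0.13) and Id2 were higher in the former, as were the few reads of Zeb2 and Batf3, and Irf4 was lower (-0.53 ± 0.12). The call for Zeb2 (0.78 ± 0.33) was lost without the replicate block (adjusted p = 0.073) and without replicate 1, 2, 3 or 5 (0.0607 to 0.22). Runx3 (0.18 ± 0.09, adjusted p = 0.073) passed with RLE normalization (0.0202), with DESeq2 (0.0162) and without replicate 3 (0.0467) or replicate 5 (0.018).

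Since several of these factors work against or beside a relative, log2 ratios of their levels per kb were compared for 6 pairs with an exact two-sided permutation test of 5 against 5 libraries, which can reach p = 0.00794 at best. Of 18 planned tests, 16 could be computed, and p-values were adjusted over these 16. Prdm1 exceeded its antagonist Bcl6, a repressor that favors memory, at 0 h (4.96-fold) and with IL-2 at pH 7.4 (6.96-fold) and pH 7 (3.58-fold), but Bcl6 exceeded Prdm1 at pH 6.6 with IL-2, where the ratio was 0.394, and in all groups without IL-2. In the 5 libraries the log2 ratio was, with IL-2, 2.10 to 3.25 at pH 7.4 and -1.48 to -1.05 at pH 6.6, so the groups stood far apart (difference -4.14, adjusted p = 0.0181). Prdm1 itself did not pass between these groups, whereas Bcl6 rose from 2.83 ± 0.640 to 49.3 ± 10.7 CPM (SD, n = 5). Without IL-2 the acid groups differed from the neutral ones by -0.04 (adjusted p = 0.73).

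Irf4 and Irf8 crossed as well. The ratio of Irf4 to Irf8 was, with IL-2, 0.674 at pH 7.4 and 1.88 at pH 6.6, with log2 values of -0.91 to -0.29 and 0.52 to 1.45 (difference 1.48, exact permutation test, adjusted p = 0.0181). Without IL-2 it moved the other way, from 5.92 at pH 7.4 to 2.89 at pH 6.6 (log2 difference -1.04, adjusted p = 0.0181). Tbx21 was below its relative Eomes in every group, and their ratio was 0.0558 at pH 7.4 with IL-2 against 0.138 at pH 6.6 with IL-2 (log2 difference 1.31, adjusted p = 0.0181). Without IL-2 it was 0.118 at pH 7.4 and 0.172 at pH 6.6 (log2 difference 0.54, adjusted p = 0.0564). The log2 ratio of Id2 to Id3 showed no difference past the threshold, except without replicate 1 (adjusted p = 0.0457). For Batf to Batf3 only pH 6.6 against pH 7.4 with IL-2 could be computed, and it did not pass (1.28, adjusted p = 0.165). Its other comparisons use pH 7.4 without IL-2, where most libraries had no Batf3 read. The log2 ratio of Zeb2 to the more abundant Zeb1 did not pass (-0.70 with IL-2, adjusted p = 0.0564). With 0.5 CPM added to each level, Zeb2 to Zeb1 did (-0.97 with IL-2 and -1.11 without, adjusted p = 0.0159 each).

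**Figure D4:**
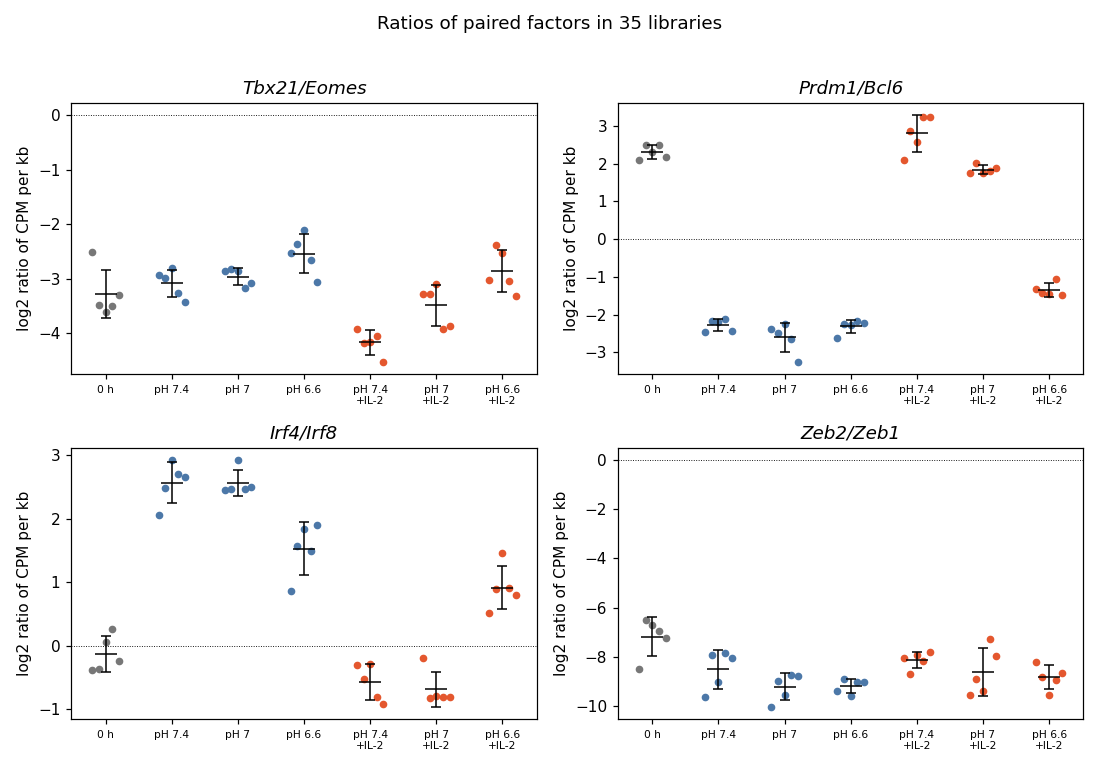
Log2 ratio of levels per kb (y axes) in each library for Tbx21/Eomes, Prdm1/Bcl6, Irf4/Irf8 and Zeb2/Zeb1, by group on the x axis, with the mean ± SD of 5 libraries. The dotted line at 0 marks equal levels. Prdm1/Bcl6 and Irf4/Irf8 lie on opposite sides of 0 at pH 7.4 and pH 6.6 with IL-2.

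Other genes of the same pathways were counted beside the factors. The shares of all genes called, 76.3% for pH 6.6 with IL-2 (40.9% lower), 67.0% for pH 6.6 without and 80.4% for IL-2 at pH 7.4, stand as the background of these counts, and the counts of relatives and of cytokine inputs called in either direction lie near them. Of the 13819 genes tested, pH 6.6 with IL-2 raised 4889 and lowered 5650. Without IL-2 it raised 4367 and lowered 4891. IL-2 at pH 7.4 raised 5433 and lowered 5678. Of 22 tested relatives and partners, pH 6.6 with IL-2 raised 9 and lowered 8 (median log2 fold change 0.11, against -0.07 over all genes), led by a rise of Fosl2 (2.32), a fall of Eomes (-1.69) and a rise of Zeb1 (1.36). Of 19 tested effector genes 4 were higher and 13 lower (median -0.85), led by the falls of Gzmb, the granzyme B gene (-3.27), Ifng, the interferon-γ gene (-2.61), and Xcl1 (-2.22). Of 12 memory factors 10 were higher and 2 lower (median 1.21), led by Bcl6 (4.12), Tcf7, which encodes TCF-1 (3.23), and Bach2 (2.27). Eomes, Zeb1 and Id3 stand in both the list of relatives and that of memory factors.

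Without IL-2, the same contrast of pH raised 4 and lowered 13 of the 19 effector genes (median -0.71), again with Ifng (-3.47), Klrg1 (-3.28) and Ccl4 (-2.90) in front. Of the 12 memory factors it raised 2 and lowered 5 (median -0.14, against -0.03 over all genes), and among the relatives it raised 10 and lowered 6, with Fosl2 at 3.27. Among 22 genes of cytokine input, pH 6.6 raised 12 and lowered 6 with IL-2 (median 0.54, led by Socs3, Ifngr1 and Ifngr2 at 2.01, 1.95 and 1.8), and raised 12 and lowered 5 without (median 0.25). In the latter the receptor gene Il7r fell by 3.27 on the log2 scale and Ifngr2 rose by 1.24. IL-2 at pH 7.4 raised 8 and lowered 7 of the effector genes, with Gzmb at 6.05, and raised 2 and lowered 9 of the memory factors, with Tcf7 at -4.38.

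The factors were also compared by the shape of their response. Over the 35 libraries, with the mean of each replicate number removed, Irf8 followed Id2 with r = 0.91 and Tbx21 with r = 0.89, and Tbx21 followed Id2 with r = 0.81. Runx3 ran against Irf8 (r = -0.63) and Id2 (r = -0.61). Zeb2 was unrelated in shape to Irf8 (r = 0.02) and Tbx21 (r = -0.03). Among tested genes whose mean log2 CPM was 1 or more, the nearest to Irf8 were Sh3bp2 (r = 0.99), Il12rb1 (0.99) and Ppa1 (0.99), and the nearest to Id2 were Pilrb1 (0.98), Bag2 (0.98) and Aqp9 (0.98). For Irf4 they were Serpina3g, Frrs1 and Jrk (0.97 to 0.95), for Tbx21 AA467197, 1810037I17Rik and Tgm2 (0.93 to 0.92), and for Prdm1 Herpud1, Afg3l2 and Phf10 (0.95 to 0.91). For Runx3 they were Klhl26, Cd37 and Sytl1 (0.91 to 0.90), for Batf3 Acsl3, Prdx4 and Eef1g (0.89 to 0.88), for Batf they included Mrpl43 and Prkcsh (0.79 each), and for Zeb2 Pcyt1a, Rab27b and Arap2 (0.76 to 0.74). The 35 libraries fall into 7 groups, so these values describe the group pattern and are not tests.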

How the data were processed

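Polyadenylated RNA of OT-I CTLs was sequenced from a stranded library kit. The authors deposited 1 table per library with whole-number counts of reads on 48709 genes, without normalization, plus 5 closing rows (reads without a feature, ambiguous or aligned to several places), which were left out of library sizes and tests. The submitters' processing notes name cutadapt 1.8, STAR 2.5.2b, HTSeq 0.6.1 and the GRCm38 build. Whether the counting used strand is not given in the sources used here. Symbols and exon lengths came from GENCODE M21 (48349 identifiers matched).

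In R 4.3.3, edgeR 4.0.16 kept 13819 genes (filterByExpr, minimum count 10), normalized counts by TMM, and fitted 1 robust quasi-likelihood model to all 35 libraries with group terms and the replicate number as a block, since the study's statistics use paired tests. Errors of log2 fold changes are standard errors derived from the F statistic. The Benjamini-Hochberg adjustment ran over all tested genes, and 0.05 was the threshold. Same-numbered libraries deviated together from their group means (median r 0.273 over 105 pairs, 95 of them over 0.1, against -0.0745 over 420 other pairs), but the numbers come from the labels, and 10 pairs were not over 0.1. Replicates of a group differed by more than sampling noise (chi-square per degree of freedom of 6.17 or more). The model was tested on simulated data.

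Ratios used CPM per kb without a pseudocount and exact permutation tests in scipy 1.17.1. As alternatives, DESeq2 1.42.0 replaced edgeR, RLE replaced TMM, the filter was loosened (1 count in any library) or tightened (10 in every library), only the groups compared were fitted, the block was dropped, and each replicate number was left out. The members and gene lists were chosen with earlier results of these data known. All 9 members are named, together with the 3 genes with the largest called changes in each other list (mean log2 CPM of 1 or more) and the 3 genes most like each member. Some results under this rule are not reported here. The interaction of pH 7 and IL-2, the marker genes named and the windows printed were chosen after values were seen.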

Additional observations from a re-analysis of the deposited data

Results flagged for a closer look

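For 7 factors, acidity (pH 6.6) had unlike effects in cells given IL-2 and in cells given none, by the test of the interaction. The same test passed for 67.0% of all genes, so the count of factors lies near that share. The calls for Irf4, Batf and Prdm1 did not hold in every alternative, as given above. The interaction on the log2 scale was -2.10 for Irf8, -5.30 for Batf3, -0.65 for Tbx21, -0.64 for Prdm1, -0.45 for Batf, 0.40 for Irf4 and 0.61 for Runx3. For Irf8, Batf3, Tbx21 and Batf the value with IL-2 was further below that without it, and for Irf4 and Runx3 it was above. The value for Batf3 depends on the prior count: it rests on 1 read over the 5 libraries at pH 7.4 without IL-2, and Batf3 passed the filter only through groups where it is high. For Prdm1 the rise without IL-2 had no counterpart with it.

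Among 63 sets of 5 libraries (9 factors in 7 groups), 2 had a library set apart from the other 4. For normally distributed values, chance alone flags about 1 in 20 such sets, a rate that need not hold for low counts. Both were Batf3, at the counting limit: replicate 3 at 0 h had 0.043 CPM, from 1 read, where the others had 10 to 15 reads, and replicate 2 at pH 7.4 without IL-2 had 0.0393 CPM, from the 1 read of that group. A set with reads in only 1 library is always flagged, so the latter flag was fixed in advance.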

How the results depend on the processing

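Of 126 log2 fold changes (9 factors in 14 comparisons), 70 passed the threshold, and 0 of these 70 changed direction in any alternative in which they could be fitted. The call held in every alternative run for 52, and the 18 others are given with their values beside the results above. Without the replicate block 8 calls were lost. Batf3 was not tested under the stricter filter or without replicate 1 or 4, nor Zeb2 under the stricter filter, because they did not pass the filter there. With only the groups compared Batf3 had no value in 13 of the 14 comparisons and Zeb2 in 1, and DESeq2 gave no adjusted p for Batf3 in 3 and for Zeb2 in 1. Direction changed for 19 values that had not passed, each at most 0.37 in size, and the cause was not tested. For Prdm1 (pH 6.6 against 7.4 with IL-2) the value became 0.0436 with RLE, 0.0427 with DESeq2, 0.0228 with the stricter filter and 0.0515 with only the groups compared. For Batf (pH 6.6 against 7 with IL-2) these were 0.0344, 0.0345, 0.0007 and 0.0324. Runx3 (pH 6.6 against 7 without IL-2) became 0.0222 with RLE and 0.0222 with DESeq2, Batf (pH 6.6 with IL-2 against 7.4 without) 0.0084 and 0.0085, and Runx3 (pH 7.4 without IL-2 against 0 h) 0.0015 and 0.0014, with 0.001 under the looser and 0.0225 under the stricter filter. Zeb2 (IL-2 at pH 6.6) became 0.0078 with DESeq2 and 0.0186 with only the groups compared, and Id2 (pH 7.4 with IL-2 against 0 h) 0.0004 with the looser filter.

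Leaving out each replicate in turn, values that changed direction spanned -0.1108 to 0.0518 for Prdm1 (pH 6.6 against 7.4 with IL-2), -0.0112 to 0.0636 for Id2 and -0.7361 to 0.0066 for Zeb2 (pH 7 against 7.4 with IL-2), -0.0356 to 0.0496 for Batf (pH 6.6 against 7 with IL-2), and -0.1491 to 0.0942 for Irf8 and -0.1058 to 0.0134 for Runx3 (the same without IL-2). For IL-2 they spanned -0.1768 to 0.3649 for Zeb2 at pH 7.4, and -0.1184 to 0.0779 for Zeb2 and -0.3015 to 0.1395 for Batf3 at pH 6.6. For the interaction they spanned -0.204 to 0.0351 for Id2 and -0.3525 to 0.0585 for Zeb2 at pH 6.6, and -0.1945 to 0.677 for Zeb2 at pH 7. Against 0 h they spanned -0.1966 to 0.0543 for Tbx21, -0.1053 to 0.0927 for Id2 and -0.0407 to 0.2986 for Batf3 with IL-2, and -0.0189 to 0.1135 for Irf4, -0.2357 to 0.0257 for Batf and -0.1227 to 0.086 for Runx3 without it.

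Without the replicate block, 2 factors passed for pH 7 against 7.4 with IL-2, and 1660 of all genes did (4388 with only the groups compared). For the same pH without IL-2, 56 genes passed without the block and 942 with only the groups compared. For the interaction at pH 7 the block's removal gave 177 genes, DESeq2 1016, the looser filter 326 and only the groups compared 1632, with 1 factor. IL-2 at pH 6.6 gave 5369 genes with only the groups compared, and pH 6.6 against 7.4 without IL-2 gave 3 factors under the stricter filter. Over the omissions of a replicate, the factors passing numbered 2 to 3 for pH 7 against 7.4 with IL-2, 3 to 5 for pH 6.6 against 7.4 without IL-2, 4 to 7 for IL-2 at pH 7, 4 to 6 for the interaction at pH 6.6 and 4 to 7 for pH 6.6 with IL-2 against 7.4 without. The genes passing numbered 1283 to 2425 and 35 to 332 for pH 7 against 7.4 with and without IL-2, 2119 to 2630 for IL-2 at pH 6.6 and 98 to 711 for the interaction at pH 7.

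For the ratios, pairing libraries by replicate number (exact sign-flip test) cannot give a p below 0.0625, and the adjusted p of the 7 ratio differences that had passed was then 0.0909. Without replicate 2, 3, 4 or 5 the exact test of 4 against 4 libraries cannot go below 0.0286, and the adjusted p of these 7 was 0.0571 to 0.0653. Neither says anything of their stability, and 0 of the 7 changed direction.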

Other observations

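Eomes, the T-box relative of Tbx21, also belongs to the natural killer list, and with it the summed level of that list was 596 to 705 CPM at pH 7.4 with IL-2 and 180 to 257 CPM at pH 6.6 with IL-2, while Ncr1, the defining receptor of those cells, was under 0.1 CPM. Klrb1c, the remaining gene of the list, was lower at pH 6.6 with IL-2 (log2 fold change -0.78 ± 0.13, edgeR, adjusted p = 3.7e-06). The part of natural killer cells in these values was not tested. Eomes itself was 614 ± 43.3 CPM at pH 7.4 with IL-2 and 190 ± 26.2 CPM at pH 6.6 with IL-2 (SD, n = 5), a larger fall than that of Tbx21.

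Zbtb46, a BTB zinc-finger gene known as a marker of classical dendritic cells, moved with pH in both IL-2 conditions. It was 0.356 ± 0.0919 CPM at pH 7.4 and 16.9 ± 4.65 CPM at pH 6.6 with IL-2 (log2 fold change 5.56 ± 0.29, edgeR, adjusted p = 9.4e-18), and 2.29 ± 0.742 and 24.7 ± 4.29 CPM without IL-2 (3.44 ± 0.22, adjusted p = 1.4e-14). It was chosen after its values were seen.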
